A study of Mus musculus with 9 samples.

Results

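The interferon-stimulated genes described here are 41 mouse genes known as targets of interferon signalling, listed by symbol. The list was chosen with earlier results of these data known, so the shares of members given below are descriptions. All 41 were rows of a table of 24060 genes, and 39 of them passed the filter on low values, a maximum above 1 TPM in the 9 samples, which 12115 genes passed in all. The remaining 2 members, Oasl2 and Ifi44, reached at most 0.22 and 0.34 TPM in any sample and entered no test. Values are in TPM, a level per gene length that adds up to the same amount in every sample, so that TPM of different genes can be set side by side.

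The cells were CD8 T cells of 3 strains of transnuclear mice, Rop7-I, Rop7-II and Rop7-III, and RNA was sequenced from 3 biological replicates of each strain. A transnuclear strain is made by nuclear transfer from a single sorted T cell, so each strain carries the rearranged receptor genes of 1 clone, and what is found in a strain cannot be told apart from what is particular to that line of mice. All 3 receptors recognise the Rop7 epitope of Toxoplasma gondii on H-2Ld, and the strains had been backcrossed onto BALB/c; the study describes the sequenced T cells as homozygous for the receptor, and gives no age or sex for the mice. In all 9 samples unstimulated splenocytes had spent a night in medium with IL-2 at 10 ng/ml and no antigen before CD3+ CD8+ cells binding the H-2Ld-Rop7 tetramer were sorted. No sample was treated with interferon or lacked an interferon receptor, so the values are levels in resting, IL-2-exposed cells without an induced or an interferon-free reference.

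Type I interferon binds the receptor chains Ifnar1 and Ifnar2, and the kinases Jak1 and Tyk2 then pass the signal to a complex with Stat2 and Irf9, which binds the interferon-stimulated response element (ISRE). Type II interferon, IFN-γ, acts through Ifngr1, Ifngr2, Jak1 and Jak2 on genes with the gamma-activated site (GAS). Resting lymphocytes keep a low, tonic level of many of these transcripts, and CD8 T cells respond to interferon during priming with increased survival, cytotoxicity and antiviral protection.

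Windows around the RefSeq start of each member were searched for the letters of these elements. The stretches printed here come from 4 of the 5 members that were called between clones and have an ISRE core, and from 4 members that are textbook ISRE genes. The fifth, Ifitm3, has its cores from bases 3 and 20 after the start, within the transcribed part, and is not printed. Capitals mark the core, which is GAAA, any 2 bases and GAAA again, or its reverse complement, TTTC, any 2 bases and TTTC, with overlapping cores merged, and each sequence is read 5′ to 3′ on the gene's strand.
Gbp2, chr3:142620592-142620621, plus strand: gaactcttttagTTTCACTTTCactgtctt
Gbp3, chr3:142559964-142560023, plus strand: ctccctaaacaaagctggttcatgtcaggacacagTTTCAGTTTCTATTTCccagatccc
Slfn5, chr11:82951936-82951965, plus strand: cccttcaaagtGAAAAAGAAAaaaaaaaaa
Bst2, chr8:71537563-71537622, minus strand: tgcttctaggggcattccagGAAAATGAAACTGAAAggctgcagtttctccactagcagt
Isg15, chr4:156200864-156200923, minus strand: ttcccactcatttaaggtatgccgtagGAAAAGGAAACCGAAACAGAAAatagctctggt
Oas1a, chr5:120907526-120907585, minus strand: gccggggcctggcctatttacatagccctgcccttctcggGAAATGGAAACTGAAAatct
Ifit3, chr19:34583359-34583428, plus strand: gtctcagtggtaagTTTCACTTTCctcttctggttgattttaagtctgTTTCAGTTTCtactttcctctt
Ifit1, chr19:34640769-34640828, plus strand: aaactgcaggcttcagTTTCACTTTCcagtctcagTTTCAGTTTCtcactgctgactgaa

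The sequences are RefSeq's, of the reference assembly GRCm38.p6, which is a C57BL/6J genome, whereas these mice were BALB/c. Isg15 had 3 overlapping cores in a row, whereas Ifit3 and Ifit1 each had 2 separate cores. Slfn5 had a single core that runs into a stretch of A. All 8 stretches lie before the RefSeq start, but by the GENCODE annotation the last 20 of the 30 Gbp2 bases lie in an exon of Gbp2, and the Slfn5 stretch lies within Slfn5 outside its exons. Promoter windows of 250 bases before and 50 after the start were found for 32 of the 41 members, and not for Mx1, Oas2, Usp18, Rtp4, Ifi27l2a, Zbp1, Dhx58, Parp9 and Parp14. An ISRE core on either strand lay in 17 of the 32 windows (53.1%), against 3.99% of the windows of 27018 genes. The GAS letters TTCNNNGAA, searched in the same windows, lay in 8 of 32 (25%), against 9.55% of all genes. Among members called between any pair of clones, 5 of 11 windows held an ISRE core and 5 of 11 held the GAS letters. Among members tested and not called, 12 of 19 windows (63.2%) held an ISRE core and 3 of 19 (15.8%) held the GAS letters. A match of letters is a description and not a measured binding site.

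Defining CD8 T-cell transcripts were present in all 9 samples, where 7 markers (Cd8a, Cd8b1, Lck, Thy1, Cd3d and others) summed to between 7270 and 8168 TPM and none stood at 0. Transcripts of other cells were present too. Over 10 B-cell markers the sum was 142 to 363 TPM in Rop7-I, 59.9 to 120 TPM in Rop7-III, and 77.2 and 80.4 TPM in 2 of the Rop7-II samples, but 803 TPM in Rop7-II replicate 1. Over 9 myeloid markers the same replicate held 642 TPM, against 55.9 and 211 TPM in the other 2 Rop7-II samples and 40.2 to 132 TPM elsewhere, and none of the B-cell or myeloid markers stood at 0 in any sample. Erythroid transcripts summed to between 15.2 and 1408 TPM, highest in Rop7-I replicate 2, CD4 T-cell markers to between 2.39 and 19.1 TPM, highest in Rop7-II replicate 1, and NK markers to at most 1.70 TPM. Of the plasmacytoid dendritic cell markers, which include genes that T cells express (Ccr9, Pacsin1, Runx2), the defining Siglech reached at most 0.35 TPM. Counts of called genes are therefore given with and without Rop7-II replicate 1. In such bulk samples, fewer cells of a type and less RNA per cell cannot be told apart. Deposited TPM carry no read counts, so the depth behind each value is unknown.

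The interferon-stimulated genes stood highest in Rop7-I T cells and lowest in Rop7-III T cells. Relative to each gene's mean over the 9 samples, the median log2(TPM + 1) of the 39 tested members lay 0.23, 0.30 and 0.22 above that mean in the 3 Rop7-I samples. In Rop7-II it lay at -0.17, -0.02 and 0.11, and in Rop7-III at -0.13, -0.14 and -0.27. The Rop7-I samples did not overlap with the others, whereas Rop7-II overlapped with Rop7-III through its replicate 1. The summed level of the 41 members was 2409, 2395 and 2297 TPM in Rop7-I, against 1792, 1987 and 2209 TPM in Rop7-II and 1876, 1860 and 1754 TPM in Rop7-III.

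**Figure D1:**
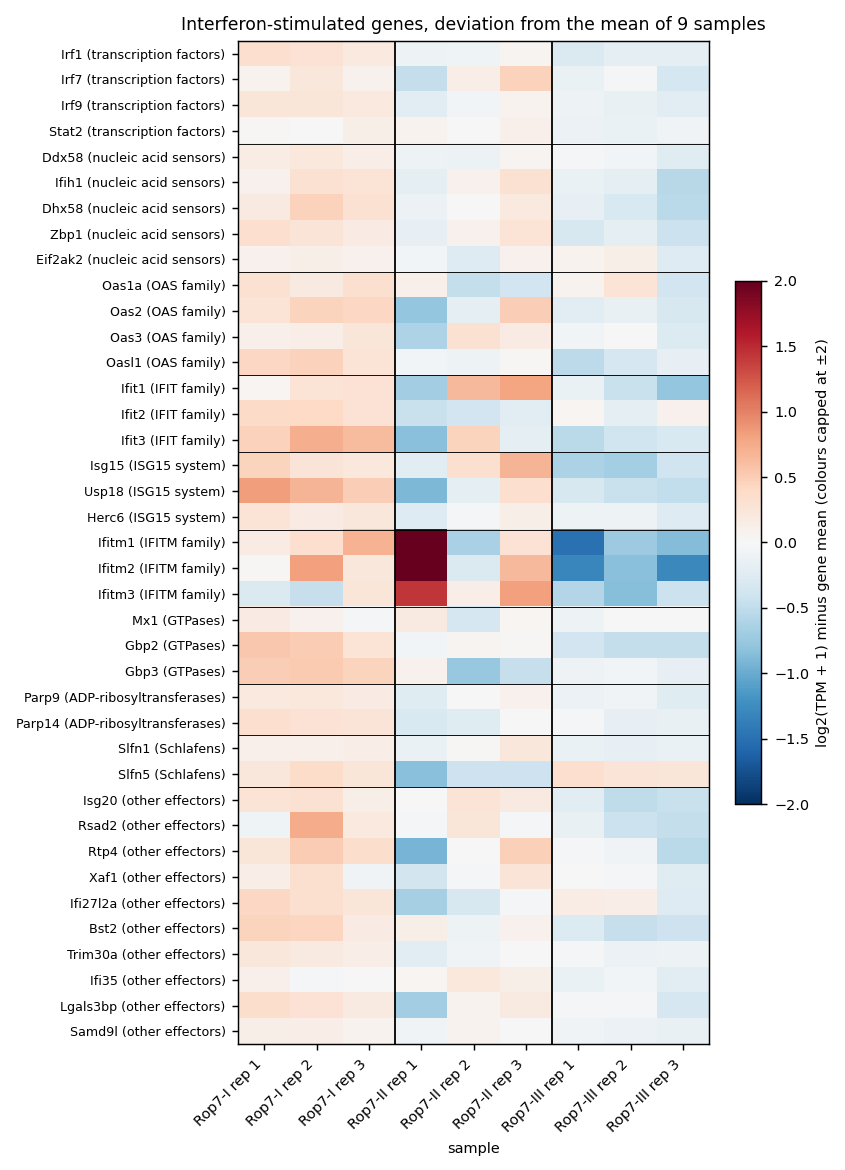
Each of the 39 tested members (rows, grouped by role) in each of the 9 samples (columns), as log2(TPM + 1) minus the gene's mean over the samples, with colours capped at 2 in either direction. The 3 Rop7-I columns are red in most rows and the 3 Rop7-III columns blue in most rows, while Rop7-II replicate 1 differs from the other 2 Rop7-II samples, with its deepest red in the 3 Ifitm genes.

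By the means of log2(TPM + 1), 23 of 39 members (59%) had the order Rop7-I above Rop7-II above Rop7-III, which 14.9% of all tested genes had. A further 10 members (25.6%) had Rop7-I highest and Rop7-II lowest, against 13.4% of all tested genes. Another 6 (15.4%) had Rop7-II highest and Rop7-III lowest, fewer than the 22.6% of all tested genes. None of the 39 had its lowest mean in Rop7-I or its highest in Rop7-III. Of all tested genes, 16.6% had Rop7-II highest and Rop7-I lowest. Rop7-III was highest with Rop7-II lowest in 19.4% of them, and with Rop7-I lowest in 13%. Neighbours in these orders often did not differ beyond their spread, as the tests show.

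All 3 Rop7-I samples lay above all 6 other samples in 16 members (41%), against 5.67% of all tested genes. These were Irf1, Irf9, Ddx58, Oasl1, Ifit2, Ifit3, Usp18, Herc6, Gbp2, Gbp3, Parp9, Parp14, Ifi27l2a, Bst2, Trim30a and Samd9l. All 3 Rop7-III samples lay below the other 6 in 14 members (35.9%), against 8.91% of all tested genes. Of the 14, Irf1, Oasl1, Gbp2, Bst2 and Samd9l are also among the 16, and the others were Stat2, Dhx58, Zbp1, Isg15, Ifitm1, Ifitm2, Isg20, Rsad2 and Ifi35. With Rop7-II replicate 1 left out, Rop7-I lay above the other 5 samples in 16 members again (8.52% of all tested genes), and Rop7-III lay below the other 5 in 26 (66.7%, against 10.2% of all tested genes). All 3 Rop7-II samples lay below the other 6 in 2 members, Ifit2 and Slfn5, against 9.34% of all tested genes. No member had all 3 Rop7-I samples below the others (5.97% of all tested genes), all 3 Rop7-III samples above them (9.67%) or all 3 Rop7-II samples above them (10.6%).

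Clones were compared gene by gene with limma, with a limit of 0.01 on the adjusted p (Benjamini-Hochberg, over all tested genes) for a call. Across the 3 clones, limma's F test called 12 of 39 members (30.8%), against 14.1% of all tested genes, and 20 with Rop7-II replicate 1 left out, against 14.4% of all tested genes. The count was between 5 and 7 when any 1 of the Rop7-I or Rop7-III samples was left out, and 13 without either other Rop7-II sample. Each clone enters 2 of the 3 comparisons between pairs, so these share samples and are not independent of each other.

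Against Rop7-I T cells, 9 members fell and none rose in Rop7-III T cells. The 9 were Irf1, Irf9, Zbp1, Oasl1, Gbp2, Parp14, Isg20, Bst2 and Samd9l, 23.1% of the 39 tested members, where 2.28% of all tested genes were lower and 2.58% were higher. All 39 members had a difference below 0, with a median of -0.42 on the log2 scale, where 49% of all tested genes lay above 0 and their median was -0.0035. At an unadjusted p under 0.05, limma had 27 members lower and 0 higher, against 13.3% and 14.7% of all tested genes. None of the 9 reached a 2-fold difference on the log2(TPM + 1) scale, which 0.446% of all tested genes did while lower. Without Rop7-II replicate 1, which belongs to neither clone but enters the shared estimate of the spread, 20 members were lower, against 3.38% of all genes, and none higher, against 3.58%, including all 9 (100% of the 9, 45% of the 20). The count was 3 without any 1 of the Rop7-I samples, and 4, 3 and 4 without Rop7-III replicates 1, 2 and 3. B-cell marker sums were also higher in all 3 Rop7-I than in all 3 Rop7-III samples, and their part in these differences was not tested. Rop7-II replicate 1, a single sample with the largest B-cell and myeloid sums, had the lowest level of 15 members among the 9 samples (13% of all tested genes). It had the highest level of 4, Mx1 and the 3 Ifitm genes (20.8% of all tested genes), and the part of such cells in this was not tested.

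Against Rop7-II T cells, 6 members rose in Rop7-I T cells, namely Irf1, Ifit2, Gbp2, Gbp3, Parp14 and Slfn5. They are 15.4% of the tested members, where 3.67% of all tested genes were higher and 3.85% lower, and limma called no member lower, with 1 lower and 18 higher at an unadjusted p under 0.05, against 17.2% and 14.9% of all tested genes. The difference was above 0 in 33 of 39 members (84.6%), against 47.7% of all tested genes, with a median of 0.25 on the log2 scale. The same 6 genes were called without Rop7-II replicate 1, where 3.86% of all genes were higher and 3.48% lower, and the median was then 0.18. Without Rop7-I replicate 1 or without Rop7-I replicate 2, the count was 2, and without Rop7-II replicate 3 it was 9.

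In Rop7-III against Rop7-II T cells, Slfn5 rose (6.39% of all tested genes were higher) and Ifitm3, Gbp2, Isg20 and Bst2 fell, 10.3% of the members against 5.89% of all tested genes. In either direction this was 5 of 39 members (12.8%), near the 12.3% of all tested genes that were called, so the count says nothing particular of the members. With quantile normalization the calls were 1 higher and 2 lower. The median difference was -0.17 on the log2 scale, and 29 members lay below 0. The other 10 (25.6%) lay above 0, against 45.8% of all tested genes. At an unadjusted p under 0.05, limma had 16 members lower and 3 higher, against 19.9% and 17.9% of all tested genes. Without Rop7-II replicate 1, Gbp3 and Slfn5 were higher (6.08% of all genes) and 7 members were lower (4.95% of all genes), Zbp1, Ifit1, Isg15, Gbp2, Slfn1, Isg20 and Ifi35, with a median of -0.30. The calls of Slfn5, Gbp2 and Isg20 were made both with and without that sample, which is 60% of the 5 and 33.3% of the 9. The count of lower members was 1 without Rop7-I replicate 1 or 2, without Rop7-II replicate 3 and without Rop7-III replicate 2 or 3, and it was 2 without Rop7-III replicate 1. The count of higher members was 2 without Rop7-III replicate 2.

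**Figure D2:**
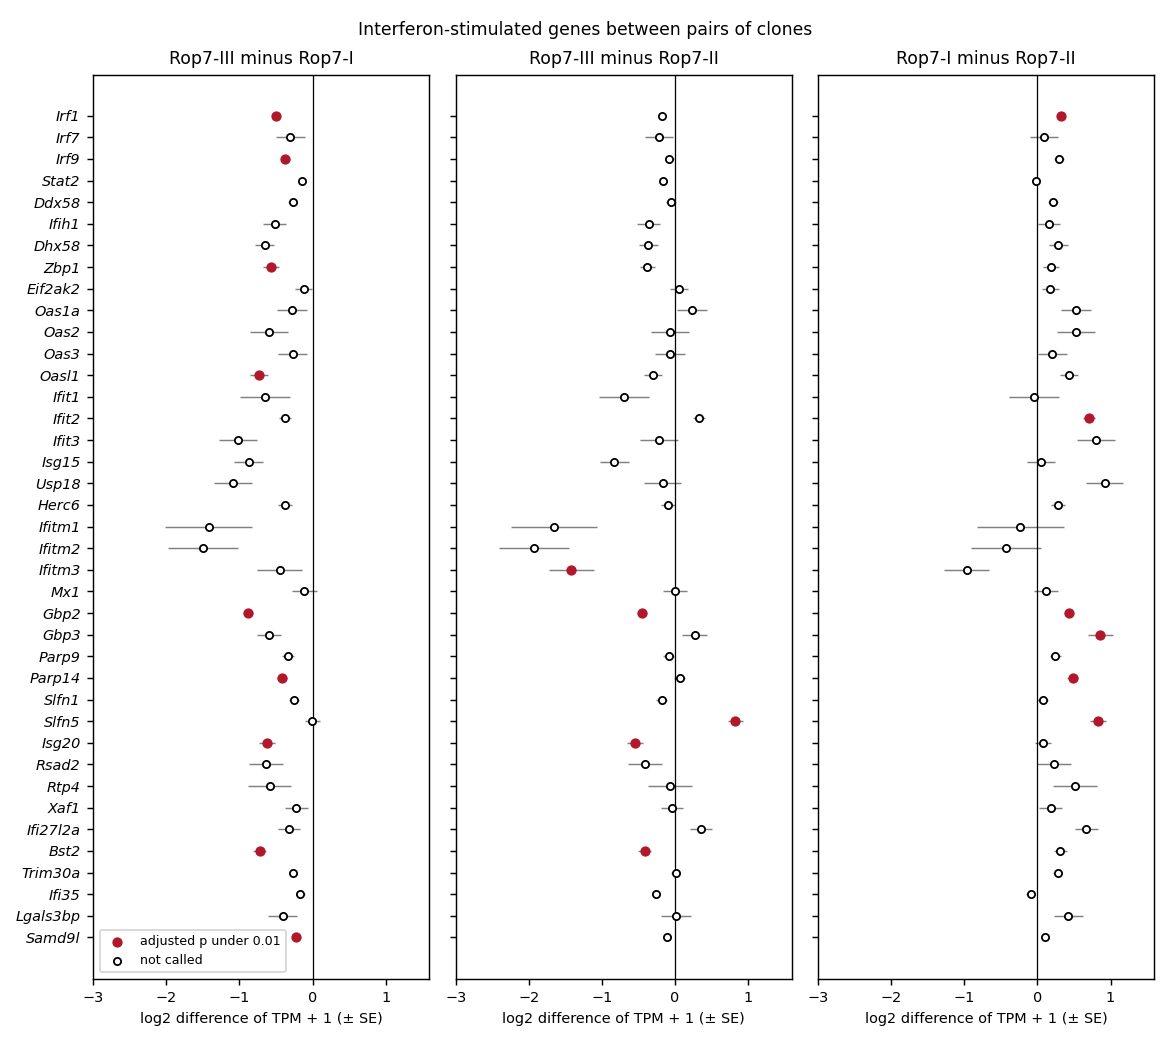
Difference in log2(TPM + 1) of each of the 39 tested members between 3 pairs of clones, with bars of 1 standard error from limma and filled points at an adjusted p under 0.01. All 39 points lie below 0 between Rop7-III and Rop7-I, and 33 lie above 0 between Rop7-I and Rop7-II.

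The transcription factors of the pathway were abundant in all clones. Irf1, a factor that IFN-γ induces and that itself binds ISRE-like sites, stood at 259, 253 and 235 TPM in Rop7-I, against 193, 193 and 214 TPM in Rop7-II and 168, 180 and 179 TPM in Rop7-III. The 3 clones did not overlap in Irf1. It fell by 0.50 on the log2 scale between Rop7-III and Rop7-I (SE 0.05, limma adjusted p = 0.000473), a call kept without any single sample. It was 0.32 higher in Rop7-I T cells than in Rop7-II (SE 0.05, adjusted p = 0.00377), a call lost without Rop7-I replicate 1 or 2 or Rop7-II replicate 2 (adjusted p of 0.0132 to 0.0198). Between Rop7-III and Rop7-II the difference was -0.18 (adjusted p = 0.0315). Irf1 lies on chromosome 11, from 53770014 to 53778374 of GRCm38.

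Irf9, the DNA-binding subunit of the complex with Stat2, was measured at 141, 141 and 137 TPM in Rop7-I, against 102, 115 and 125 TPM in Rop7-II and 111, 108 and 103 TPM in Rop7-III. Rop7-I stood above both other clones, which overlapped. Its difference between Rop7-III and Rop7-I was -0.37 (SE 0.06, limma adjusted p = 0.00648), and the call was lost without any 1 of the 6 samples of those clones (adjusted p of 0.018 to 0.0303). Stat2 ranged from 42.7 to 50.7 TPM and Irf7, the factor that amplifies type I interferon, from 38.4 to 74.2 TPM, with its lowest and highest levels both in Rop7-II. Neither was called in any pair. Irf9 shares part of its locus with Rnf31, and Irf7 with Phrf1, and the reads were not strand-specific, so that reads where Irf7 overlaps Phrf1 could be counted to either.

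Nucleic acid sensors were led by Zbp1, which recognises left-handed nucleic acids and triggers cell death. Zbp1 stood at 118, 111 and 104 TPM in Rop7-I, against 82.7, 98.2 and 113 TPM in Rop7-II and 74.5, 80.6 and 68.6 TPM in Rop7-III. Every Rop7-III sample lay below every other sample. Between Rop7-III and Rop7-I it fell by 0.57 on the log2 scale (SE 0.10, limma adjusted p = 0.00825), a call kept only without Rop7-II replicate 1 or 3 and lost without any other sample (adjusted p of 0.0116 to 0.0386). Without Rop7-II replicate 1 it was also called between Rop7-III and Rop7-II, at -0.50 (adjusted p = 0.00312) in place of -0.38 (adjusted p = 0.0268).

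The RNA helicase Ddx58 (RIG-I) had 73.1 to 76.9 TPM in Rop7-I and 56.4 to 69.5 TPM in the other clones, without overlap. The difference between Rop7-III and Rop7-I, -0.27, had an adjusted p of 0.0257 and was not called. The related helicases Ifih1 (MDA5) and Dhx58 (LGP2) were much lower, at 3.05 to 6.40 and 3.66 to 8.33 TPM. The kinase Eif2ak2 (PKR), which stops translation on sensing double-stranded RNA, stood between 7.53 and 10.1 TPM in every clone, with differences between -0.12 and 0.17 in the 3 pairs. None of these 4 was called in any pair with all 9 samples.

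In the OAS family, enzymes and enzyme-like proteins that sense double-stranded RNA, Oasl1 was called. Its levels were 4.12, 4.27 and 3.62 TPM in Rop7-I, against 2.69, 2.56 and 2.90 TPM in Rop7-II and 1.65, 2.03 and 2.40 TPM in Rop7-III, and no 2 clones overlapped. Oasl1, which restrains translation of Irf7, fell by 0.73 on the log2 scale between Rop7-III and Rop7-I (SE 0.12, limma adjusted p = 0.006). The call was lost without any 1 of the Rop7-I samples or Rop7-III replicate 1 or 2 (adjusted p of 0.0138 to 0.0298). Oas3, the most abundant of the family, had 16.1, 16.6 and 18.0 TPM in Rop7-I, against 9.48, 18.7 and 17.0 TPM in Rop7-II and 14.4, 14.9 and 12.3 TPM in Rop7-III, with Rop7-II replicate 1 far below its group. Oas1a ranged from 1.15 to 2.74 TPM and Oas2 from 1.65 to 5.41 TPM, and neither was called.

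IFIT proteins bind foreign RNA and block its translation. Ifit2 had 54.5, 54.8 and 50.8 TPM in Rop7-I, against 30.3, 31.5 and 35.6 TPM in Rop7-II and 42.7, 36.2 and 44.1 TPM in Rop7-III. The order was Rop7-I, then Rop7-III, then Rop7-II, without overlap between clones. Ifit2 was 0.70 higher on the log2 scale in Rop7-I T cells than in Rop7-II (SE 0.08, limma adjusted p = 0.000614), a call kept without any single sample. Its differences of -0.38 between Rop7-III and Rop7-I (adjusted p = 0.0175) and 0.33 between Rop7-III and Rop7-II (adjusted p = 0.0189) were not called.

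Ifit3 and Ifit1, whose promoters are printed above, lay lower and varied more. Ifit3 had 12.1, 14.6 and 13.7 TPM in Rop7-I, against 4.30, 11.9 and 7.33 TPM in Rop7-II and 5.54, 6.17 and 6.67 TPM in Rop7-III. Ifit1 had 6.86, 8.22 and 8.28 TPM in Rop7-I, against 3.71, 10.97 and 12.2 TPM in Rop7-II and 5.97, 4.58 and 3.47 TPM in Rop7-III. Rop7-II replicate 1 was the lowest of its group in both genes, below all Rop7-III samples in Ifit3 and within their range in Ifit1. Neither gene was called with all 9 samples, where the Ifit3 difference between Rop7-III and Rop7-I was -1.02 (limma adjusted p = 0.0332). Without Rop7-II replicate 1 it was called (adjusted p = 0.00274), as was that of Ifit1 between Rop7-III and Rop7-II, at -1.17 (adjusted p = 0.00164) in place of -0.70. The Ifit genes are of 1 family. How alike their sequences are was not measured, and some counts may have been split between them.

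Isg15 is a ubiquitin-like protein, Herc6 the ligase that attaches it in mice and Usp18 the protease that removes it and also dampens the type I interferon receptor. Isg15 stood at 15.2, 13.3 and 12.7 TPM in Rop7-I, against 9.16, 13.8 and 18.1 TPM in Rop7-II and 6.68, 6.45 and 8 TPM in Rop7-III. All Rop7-III samples lay below all others. Its log2 differences were -0.87 against Rop7-I (limma adjusted p = 0.0199) and -0.83 against Rop7-II (adjusted p = 0.0145), and both passed the limit without Rop7-II replicate 1 (adjusted p = 0.00164 and 0.000611). Usp18 had 12.3, 11.1 and 9.49 TPM in Rop7-I, against 3.03, 5.54 and 8.45 TPM in Rop7-II and 5.01, 4.47 and 4.33 TPM in Rop7-III, so Rop7-I stood alone at the top. The Usp18 difference between Rop7-III and Rop7-I was -1.09 (adjusted p = 0.0236), and it was called without Rop7-II replicate 1 (adjusted p = 0.00155). Herc6, the most abundant of the 3, had 21.8, 20.0 and 20.9 TPM in Rop7-I and 14.7, 17.3 and 19.5 TPM in Rop7-II. In Rop7-III it had 16.5, 16.5 and 14.7 TPM. Herc6 was likewise not called between Rop7-III and Rop7-I with all 9 samples (adjusted p = 0.0315). It was called without Rop7-II replicate 1 (adjusted p = 0.0075).

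The IFITM proteins, membrane proteins that hinder fusion of viruses with cells, followed another pattern. Ifitm3 had 2.17, 1.81 and 3.57 TPM in Rop7-I, against 9.40, 3.26 and 5.86 TPM in Rop7-II and 1.57, 1.15 and 1.88 TPM in Rop7-III. Ifitm1 had 4.74, 5.43 and 7.26 TPM in Rop7-I, against 23.3, 2.28 and 5.25 TPM in Rop7-II and 0.83, 2.11 and 1.80 TPM in Rop7-III. Ifitm2 had 4.69, 8.90 and 5.55 TPM in Rop7-I, against 21.5, 3.60 and 7.76 TPM in Rop7-II and 1.27, 2.14 and 1.30 TPM in Rop7-III. In all 3 genes Rop7-II replicate 1, the sample with the largest B-cell and myeloid marker sums, was the highest of the 9 samples, and in Ifitm1 and Ifitm2 it stood more than 2-fold above every other sample. Ifitm3 was the only member called with a difference of at least 2-fold (0.735% of all tested genes were lower by as much), at -1.42 on the log2 scale between Rop7-III and Rop7-II (SE 0.31, limma adjusted p = 0.00943). The difference without Rop7-II replicate 1 was -1.10 (adjusted p = 0.0163), and the call was kept only without Rop7-II replicate 2 (adjusted p of 0.0112 to 0.0377 in the 8 other omissions). Without Rop7-II replicate 1, Ifitm1 and Ifitm2 were called lower in Rop7-III T cells than in Rop7-I, at -1.42 and -1.50 (adjusted p = 0.00935 and 0.00739). The 3 genes are related neighbours on chromosome 7. How alike their sequences are was not measured, and some reads may have been assigned to the wrong gene.

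Of the interferon-inducible GTPases among the members, Gbp2 differed between every pair of clones. Gbp2, a guanylate-binding protein that attacks vacuoles of intracellular parasites, had 93.1, 91.2 and 77.5 TPM in Rop7-I, against 61.2, 66.0 and 65.1 TPM in Rop7-II and 48.6, 45.5 and 45.8 TPM in Rop7-III. The 3 clones formed separate steps, and Rop7-II replicate 1 lay close to its group. Gbp2 fell by 0.89 on the log2 scale between Rop7-III and Rop7-I (SE 0.07, limma adjusted p = 7.85e-05) and by 0.45 between Rop7-III and Rop7-II (SE 0.07, adjusted p = 0.00154), both kept without any single sample. It was 0.44 higher in Rop7-I T cells than in Rop7-II (SE 0.07, adjusted p = 0.00279), a call lost without Rop7-I replicate 1 or 2 (adjusted p of 0.0121 and 0.0157). Gbp2 lies on chromosome 3 from 142620602 to 142638008, on the plus strand.

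Gbp3, its neighbour on chromosome 3, had 23.6, 24.1 and 22.8 TPM in Rop7-I, against 17.5, 9.36 and 11.8 TPM in Rop7-II and 15.3, 15.8 and 14.7 TPM in Rop7-III. Here Rop7-II replicate 1 was the highest of its group. The difference of 0.86 between Rop7-I and Rop7-II (SE 0.17, limma adjusted p = 0.00828) grew to 1.09 without that sample (adjusted p = 9.66e-05), and the call was lost in each of the 8 other omissions (adjusted p of 0.0123 to 0.0338). Mx1, of which BALB/c mice carry a defective allele, stood at 0.63 to 1.31 TPM, and its differences were between 0.00 and 0.11 in size in the 3 pairs.

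Parp9 and Parp14, ADP-ribosyltransferases that modulate the interferon response, were of similar abundance. Parp14 had 59.7, 57.8 and 56.5 TPM in Rop7-I, against 37.9, 39.6 and 46.7 TPM in Rop7-II and 45.4, 41.7 and 42.4 TPM in Rop7-III. Rop7-I stood apart, and the other 2 clones overlapped. Parp14 was 0.48 higher on the log2 scale in Rop7-I T cells than in Rop7-II (SE 0.07, limma adjusted p = 0.00235), a call lost without Rop7-I replicate 1 or 2 (adjusted p of 0.0119 and 0.012). It fell by 0.42 between Rop7-III and Rop7-I (SE 0.07, adjusted p = 0.00637), a call lost without any 1 of the 6 samples of those clones (adjusted p of 0.0149 to 0.0305). Parp9 had 60.5, 61.0 and 59.1 TPM in Rop7-I and 44.3, 52.6 and 55.6 TPM in Rop7-II. In Rop7-III it had 48.4, 50.1 and 44.4 TPM. Between Rop7-III and Rop7-I it was not called with all 9 samples (adjusted p = 0.0241) but was without Rop7-II replicate 1 (adjusted p = 0.00279). Part of the Parp9 locus is shared with Dtx3l on the other strand, and the reads do not tell the strands apart.

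Schlafen genes gave the 1 member that rose in Rop7-III. Slfn5 had 43.0, 47.3 and 43.5 TPM in Rop7-I, against 20.1, 27.3 and 27.3 TPM in Rop7-II and 46.3, 43.7 and 43.3 TPM in Rop7-III. Rop7-II lay below both other clones, and those overlapped. Its difference was 0.82 on the log2 scale between Rop7-III and Rop7-II (SE 0.10, limma adjusted p = 0.000585) and 0.83 between Rop7-I and Rop7-II (SE 0.10, adjusted p = 0.000923), and both calls were kept without any single sample. Between Rop7-III and Rop7-I it was 0.00 (SE 0.10, adjusted p = 0.983). Slfn5 lies on chromosome 11 from 82951349 to 82964840 and overlaps an antisense gene, Slfn5os. Slfn1, which restrains T-cell growth, was the most abundant member, at 474, 472 and 483 TPM in Rop7-I, against 402, 448 and 518 TPM in Rop7-II and 401, 395 and 404 TPM in Rop7-III. Slfn1 was called in no pair with all 9 samples. Leaving out Rop7-II replicate 1, it was called at -0.25 between Rop7-III and Rop7-I (adjusted p = 0.0076), as it also was without Rop7-II replicate 3, and at -0.27 between Rop7-III and Rop7-II (adjusted p = 0.00698).

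Among other effectors, Bst2 (tetherin), which holds budding virus at the cell surface, had 61.9, 60.8 and 50.6 TPM in Rop7-I, against 49.1, 42.0 and 47.9 TPM in Rop7-II and 37.2, 32.6 and 33.7 TPM in Rop7-III. The 3 clones did not overlap. Bst2 fell by 0.72 on the log2 scale between Rop7-III and Rop7-I (SE 0.09, limma adjusted p = 0.00114), a call kept without any single sample. It fell by 0.42 between Rop7-III and Rop7-II (SE 0.09, adjusted p = 0.00908), but this call was kept only without Rop7-I replicate 3 or Rop7-II replicate 2 (adjusted p of 0.0121 to 0.0372 in the 7 other omissions).

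Isg20, an exonuclease for viral RNA, had 8.60, 8.74 and 7.64 TPM in Rop7-I, against 6.99, 8.63 and 7.99 TPM in Rop7-II and 5.88, 4.55 and 4.80 TPM in Rop7-III. Rop7-III lay below both other clones, which overlapped. It fell by 0.62 on the log2 scale against Rop7-I (SE 0.11, limma adjusted p = 0.00693) and by 0.55 against Rop7-II (SE 0.11, adjusted p = 0.00672). Both calls were kept without Rop7-II replicate 1 or Rop7-III replicate 1, the first also without Rop7-II replicate 2 and the second without Rop7-I replicate 3, and were lost in the 6 other omissions of each (adjusted p of 0.0111 to 0.0331 and of 0.012 to 0.028). Samd9l, a factor that restricts viruses and cell growth, had 176, 178 and 171 TPM in Rop7-I, against 155, 169 and 163 TPM in Rop7-II and 154, 150.0 and 146 TPM in Rop7-III. Its fall of 0.22 between Rop7-III and Rop7-I (SE 0.04, adjusted p = 0.00645) was kept only without Rop7-II replicate 1 or 2 (adjusted p of 0.0101 to 0.0294 in the 7 other omissions).

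**Figure D3:**
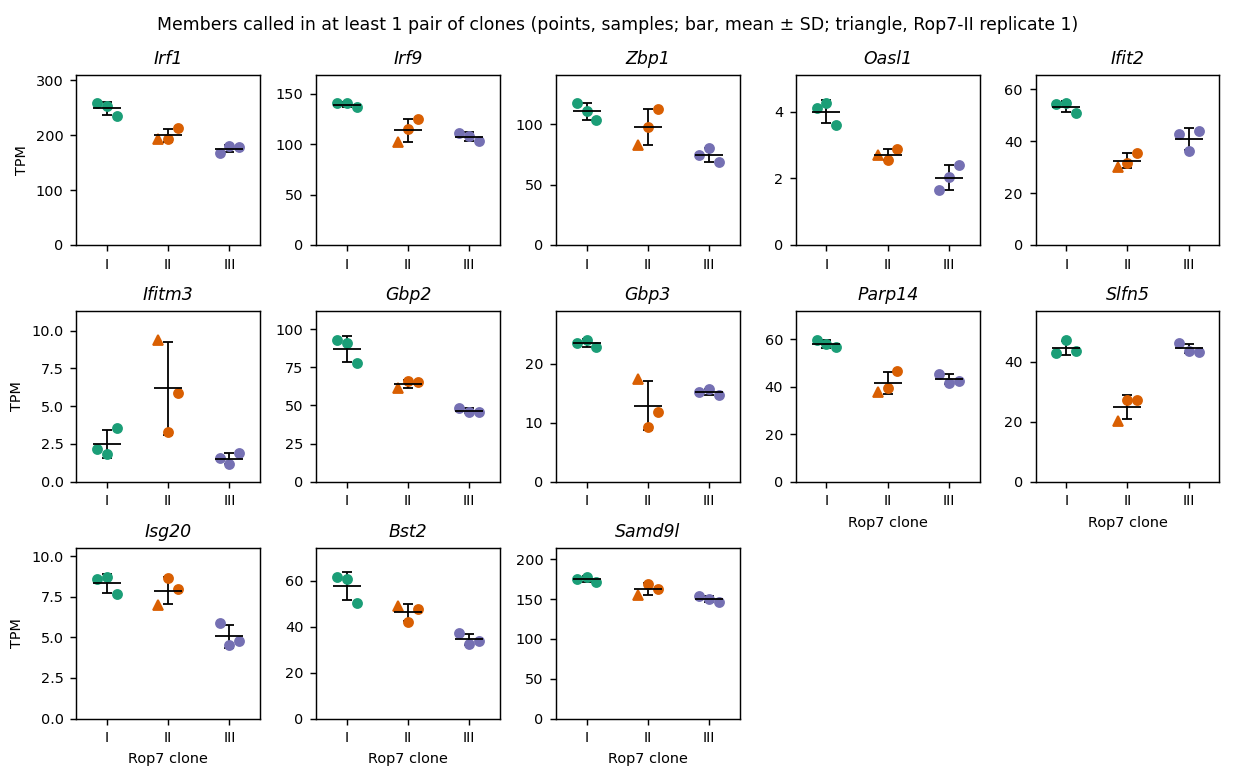
TPM of the 13 members called in at least 1 pair of clones, with 1 point per sample, a bar at the mean and whiskers of 1 SD (n = 3), and a triangle for Rop7-II replicate 1. Gbp2, Irf1 and Bst2 step down from Rop7-I to Rop7-III, Slfn5 is low in Rop7-II alone, and Ifitm3 has its 2 highest points in Rop7-II.

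Ifi27l2a, a small interferon-inducible protein, was the most abundant of the effectors outside the families, at 226, 212 and 200.0 TPM in Rop7-I, against 106, 134 and 165 TPM in Rop7-II and 187, 185 and 142 TPM in Rop7-III. Rop7-I stood above the others, and its difference of 0.67 from Rop7-II had an adjusted p of 0.0163 in limma and was not called. Trim30a, which restrains inflammatory signalling, had 95.6 to 102 TPM in Rop7-I, 74.2 to 86.8 TPM in Rop7-II and 79.8 to 84.6 TPM in Rop7-III, and was called by the F test (adjusted p = 0.00824) but in no pair. The secreted glycoprotein gene Lgals3bp ranged from 38.9 to 82.2 TPM, Ifi35, a partner of Nmi, from 59.9 to 81.6 TPM, Rtp4 from 9.27 to 26.7 TPM and the pro-apoptotic Xaf1 from 14.1 to 23.4 TPM. Lgals3bp, Rtp4 and Xaf1 had their lowest level in Rop7-II replicate 1. Rsad2 (viperin), an enzyme that makes a chain-terminating nucleotide, was near the lower limit at 0.26 to 1.94 TPM.

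Rop7-II replicate 1 was the sample with the lowest level of 15 members (38.5%), against 13% of all tested genes, and with the highest level of 4, Mx1 and the 3 Ifitm genes, against 20.8% of all tested genes. Relative to the mean of Rop7-II replicates 2 and 3, it was lower in 30 of 39 members (76.9%), against 45.6% of all tested genes. The median of that difference was -0.22 on the log2 scale over the members and 0.01 over all tested genes. The 15 were Irf7, Irf9, Oas2, Oas3, Ifit2, Ifit3, Usp18, Parp9, Parp14, Slfn5, Rtp4, Xaf1, Ifi27l2a, Trim30a and Lgals3bp. The same sample had the largest sums of B-cell and myeloid markers, and the part of these cells in its low member levels was not tested.

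**Figure D4:**
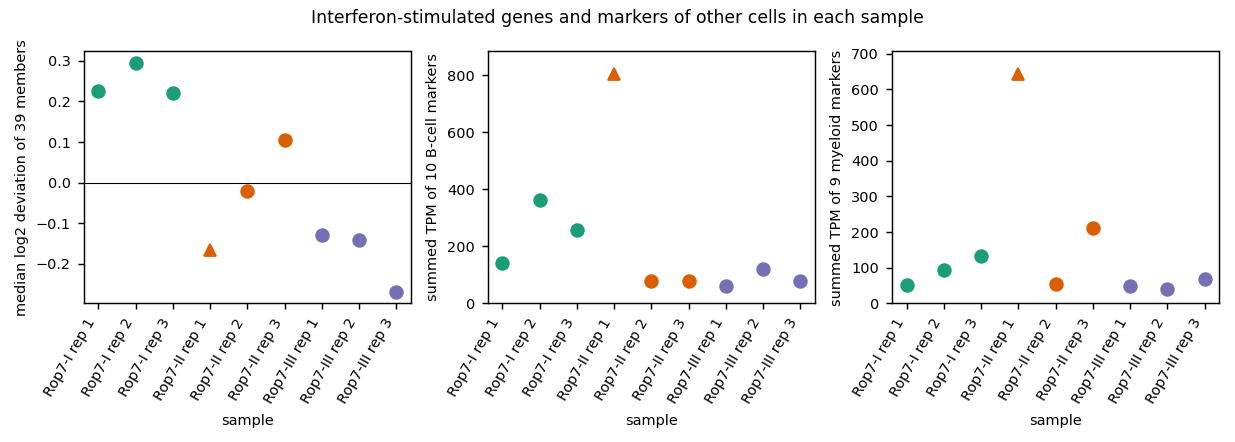
For each of the 9 samples, the median deviation of the 39 members in log2(TPM + 1) from each gene's mean (left), the summed TPM of 10 B-cell markers (middle) and that of 9 myeloid markers (right), with Rop7-II replicate 1 as a triangle. The Rop7-I samples are highest on the left, at 0.22 to 0.30, while Rop7-II replicate 1 stands highest in both marker sums, at 803 and 642 TPM.

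Other genes of the pathway were read from lists made by function. Of 19 interferon genes in the table, only Ifnz passed the filter, at up to 1.33 TPM, Ifnb1 was listed at 0 in all samples and Ifng reached at most 0.16 TPM. Of 9 genes for receptor chains and their kinases, 8 were tested. Ifnar1 was even across the clones, at 102 to 113 TPM, and Ifnar2 had 25.6 to 39.4 TPM. Jak1, Jak2 and Tyk2 were not called in any pair. Ifngr1, the ligand-binding chain of the IFN-γ receptor, had 344, 398 and 333 TPM in Rop7-I, against 158, 157 and 194 TPM in Rop7-II and 313, 337 and 366 TPM in Rop7-III. It was therefore lowest in Rop7-II without overlap, 1.00 below Rop7-III and 1.08 below Rop7-I on the log2 scale (limma adjusted p = 0.000138 and 0.000142). Il10rb, a chain shared with the receptor for type III interferon, was 0.20 higher in Rop7-III T cells than in Rop7-II (adjusted p = 0.00683). These 2 were the calls of the list, and without Rop7-II replicate 1 Il10rb was also called between Rop7-III and Rop7-I, at 0.21 (adjusted p of 0.0104 with all 9 samples and 0.00559 without that one).

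The interferon-inducible GTPases outside the members, 16 immunity-related GTPases, guanylate-binding proteins and relatives, had medians farther from 0 than the members in each pair. Between Rop7-III and Rop7-I 13 of 16 fell (2.28% of all tested genes) and none rose, with a median of -0.88 on the log2 scale. Against Rop7-II, 8 of 16 rose in Rop7-I (3.67% of all tested genes) and none fell, with a median of 0.63. Between Rop7-III and Rop7-II 2 fell (5.89% of all tested genes), Tgtp2 and Gbp8, with a median of -0.33. Tgtp2, an immunity-related GTPase, had 173, 188 and 175 TPM in Rop7-I, against 93.7, 117 and 134 TPM in Rop7-II and 69.4, 72.3 and 75.2 TPM in Rop7-III, again in 3 steps. Its log2 difference between Rop7-III and Rop7-I was -1.29 (limma adjusted p = 0.000121), beside -1.67 in its near-copy Tgtp1 (adjusted p = 0.000306) and -1.18 in Igtp (adjusted p = 0.000188). Gvin1 and Gbp7 were higher in Rop7-I T cells than in Rop7-II, by 0.89 and 0.66 (adjusted p = 0.000224 and 0.000292). The counts without Rop7-II replicate 1 were 14 lower between Rop7-III and Rop7-I (3.38% of all genes), 8 higher between Rop7-I and Rop7-II (3.86%) and 6 lower between Rop7-III and Rop7-II (4.95%). In this list Gbp4, Gbp8 and Gbp9 overlap each other on the same strand, as do Igtp and Irgm2. Reads there may be shared, so the 16 genes are not all separate measurements. Of 8 genes of the list with a promoter window, 7 held an ISRE core (87.5%) and 6 the GAS letters (75%).

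Genes of class I antigen processing, which load peptides on the molecules that CD8 T cells recognise, mostly fell in Rop7-III against both other clones. Of 14 tested, 10 fell between Rop7-III and Rop7-I (2.28% of all tested genes) and 9 between Rop7-III and Rop7-II (5.89%), none rose in either pair, and 2 rose in Rop7-I against Rop7-II (3.67%). These counts were 10, 8 and 1 without Rop7-II replicate 1. The medians were -0.25, -0.23 and 0.04 on the log2 scale. Nlrc5, the activator of class I genes, had 181, 159 and 155 TPM in Rop7-I, against 116, 119 and 139 TPM in Rop7-II and 68.7, 73.2 and 76.2 TPM in Rop7-III. It fell by 1.17 between Rop7-III and Rop7-I (limma adjusted p = 3.8e-05) and by 0.77 between Rop7-III and Rop7-II (adjusted p = 0.000174). The peptide transporter gene Tap1 fell by 0.43 and 0.49 in these pairs (adjusted p = 0.00172 and 0.000404), and the immunoproteasome subunits Psmb9 and Psmb8 fell by 0.49 and 0.24 against Rop7-I (adjusted p = 0.000103 and 0.00127). Erap1, which trims peptides, was instead lowest in Rop7-II, 0.33 below Rop7-I (adjusted p = 0.000237). Tap1 and Psmb9 overlap head to head, so that their reads cannot be separated where they do.

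**Figure D5:**
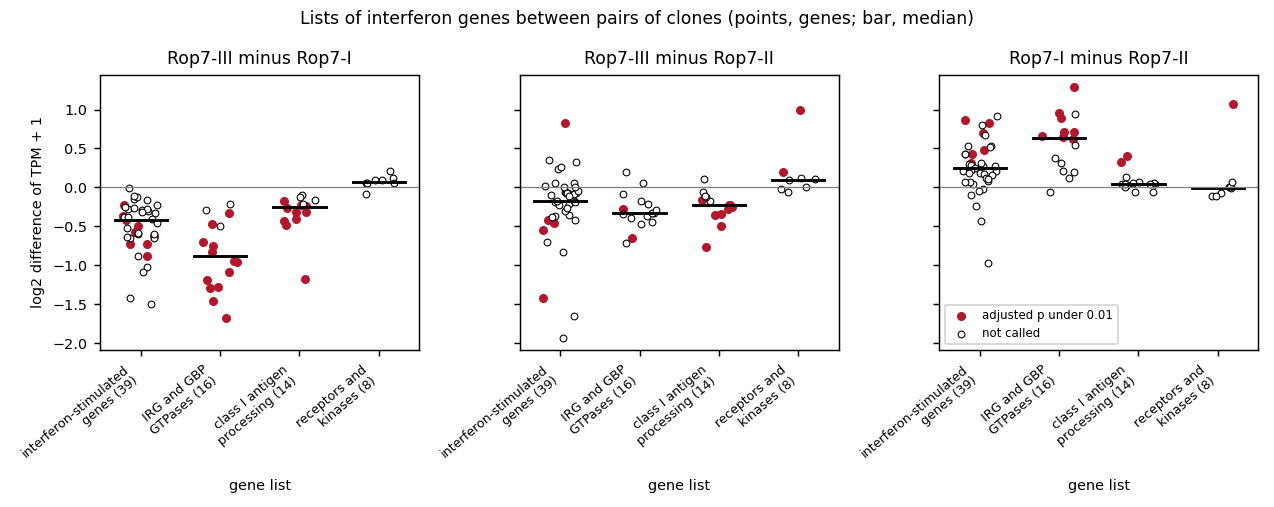
Difference in log2(TPM + 1) of each tested gene between 3 pairs of clones, for the 39 members and 3 further lists, with filled points at an adjusted p under 0.01 and bars at the medians. Between Rop7-III and Rop7-I the median of the 16 GTPases, -0.88, lies below that of the members, -0.42, while class I antigen processing lies at -0.25 and the receptor list near 0.

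Regulators of the pathway moved in both directions. Of 11 negative regulators, 3 rose and 2 fell between Rop7-III and Rop7-II (6.39% and 5.89% of all tested genes), 1 fell between Rop7-III and Rop7-I (2.28%), and 2 rose in Rop7-I against Rop7-II (3.67%). With Rop7-II replicate 1 left out, 2 rose and 3 fell between Rop7-III and Rop7-II, as the call of Socs1 was lost (adjusted p = 0.0131) and Ptpn6, a phosphatase, was called (adjusted p = 0.00275), and the other counts were again 1 and 2. Socs3, which inhibits Jak signalling, was the 1 that fell against Rop7-I, by 1.00 on the log2 scale (limma adjusted p = 0.00278), and it fell by 1.14 against Rop7-II (adjusted p = 0.000639). Socs1, a main brake on interferon signalling, had 86.9, 98.2 and 89.8 TPM in Rop7-I, against 73.1, 64.4 and 109 TPM in Rop7-II and 138, 145 and 147 TPM in Rop7-III. Socs1 was highest in Rop7-III, 0.83 above Rop7-II (adjusted p = 0.00495) and 0.64 above Rop7-I (adjusted p = 0.0284, not called). A link of Socs1 or Socs3 with the level of the members was not tested. Samhd1, a nucleotide hydrolase, and the repressor Irf2 were higher in Rop7-III T cells than in Rop7-II, by 0.68 and 0.18 (adjusted p = 0.00145 and 0.00802), while the exonuclease gene Trex1 fell by 0.55 (adjusted p = 0.00171).

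Of 16 tested genes that lead to interferon production, Tbk1, the kinase that activates Irf3, had the lowest adjusted p in each pair. Tbk1 had 82.0, 79.2 and 79.2 TPM in Rop7-I, against 161, 156 and 158 TPM in Rop7-II and 140, 142 and 150 TPM in Rop7-III. It was lowest in Rop7-I, by 0.84 on the log2 scale against Rop7-III and by 0.97 against Rop7-II (limma adjusted p = 1.72e-06 and 3.18e-07). Irak4 and Tmem173 (STING) were higher in Rop7-I T cells than in Rop7-II, by 0.31 and 0.25 (adjusted p = 0.00332 and 0.00847), and the call of Tmem173 was lost without Rop7-II replicate 1 (adjusted p = 0.016). The largest difference of the list, chosen after its values were seen, was that of Irf8, a factor of B and myeloid cells, at -1.43 between Rop7-III and Rop7-I (adjusted p = 0.24, and 0.00752 without Rop7-II replicate 1). No gene of the list was called between Rop7-III and Rop7-II, where limma had 0 of 16 past the limit and 6 at an unadjusted p under 0.05, against 37.8% of all tested genes.

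A wider list of 54 tested interferon-inducible genes held calls in both directions. Between Rop7-III and Rop7-I 6 fell and 1 rose (2.28% and 2.58% of all tested genes), between Rop7-III and Rop7-II 13 fell and 5 rose (5.89% and 6.39%), and between Rop7-I and Rop7-II 5 rose and none fell (3.67% and 3.85%). These were, with Rop7-II replicate 1 left out, 14 and 2 (3.38% and 3.58% of all genes), 10 and 5 (4.95% and 6.08%), and 7 and 1 (3.86% and 3.48%). The medians were -0.14, -0.18 and 0.08 on the log2 scale. Differences lay above 0 in 14, 17 and 35 of the 54 in these pairs, against 49%, 45.8% and 47.7% of all tested genes. Nlrc5, which the list shares with antigen processing, and Trim34a fell in Rop7-III against both other clones, Trim34a by 0.45 and 0.31 (limma adjusted p = 0.000818 and 0.00299). The chemokine gene Ccl5 went the other way, 1.77 higher in Rop7-III T cells than in Rop7-I and 2.61 higher than in Rop7-II (adjusted p = 0.00174 and 8.99e-05). Stat4, the transducer of IL-12, was lowest in Rop7-II, 0.94 below Rop7-III (adjusted p = 6.63e-05), and so was Ms4a4b, 0.56 below Rop7-I (adjusted p = 0.000109).

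Cd5, a surface protein that rises with the strength of self-recognition in T cells, had another order than the members. It stood at 72.9, 71.5 and 58.5 TPM in Rop7-I, against 33.4, 52.9 and 37.9 TPM in Rop7-II and 176, 181 and 175 TPM in Rop7-III. Rop7-III, the clone with the highest Cd5, had the lowest mean in 29 of the 39 members. Of all tested genes, 14.9% had Rop7-III lowest with Rop7-I highest, and 22.6% with Rop7-II highest. Rop7-II, the clone with the lowest Cd5, had the lowest mean in the other 10 (25.6%). Of all tested genes, 13.4% had Rop7-II lowest with Rop7-I highest, and 19.4% with Rop7-III highest. The 10 members are thus no excess over all genes, and a link with Cd5 was not tested.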

How the data were processed

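RNA-seq was performed by the study on resting CD8 T cells sorted from Rop7-I, Rop7-II or Rop7-III mice, with 3 samples per clone that the labels call biological replicates. Whether each came from a separate mouse is not given in the sources used here, so p-values measure the spread between these samples. The authors sequenced polyadenylated RNA with single-end reads that were not strand-specific, counted them on RefSeq genes of mm10 with RSEM 1.2.11 and deposited TPM for each gene and sample (versions from the submitters' processing notes). TPM corrects for the length of a gene and gives every sample the same total, and a sample's depth cannot be read from it. The authors' own tests used DESeq2 1.8.1 on counts, which does not apply to TPM.

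The 41 members, the further lists of pathway genes and cell markers, and the tests were chosen with earlier results of these data known, and 1 gene of the pathway is not reported here. Values were taken as log2(TPM + 1), which understates differences of low genes, and genes with a maximum of 1 TPM or less were left out, as in the study. In R 4.3.3, limma 3.58.1 was fitted to all 12115 remaining genes and all 9 samples, letting the spread follow mean expression (limma-trend) and pairing no samples. The Benjamini-Hochberg adjustment was made over all genes of a pair of clones, and an adjusted p under 0.01 was the limit for a call, with no minimum fold. The fit was tested on simulated data. Every adjusted p given is from limma. No label says whether replicate numbers pair the samples. Deviations of samples with the same number correlated between -0.39 and 0.11 in 9 pairs, and only 1 pair exceeded 0.1. The numbers were therefore not taken to pair them, though with 3 samples per clone these correlations cannot exclude a pairing.

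Values in every sample are given for each called member and the most abundant member of each role, and from each further list at most 5 genes are named, those lowest in adjusted p. Genes given as parts of a pathway, as neighbours or as members not called with all samples but called without Rop7-II replicate 1 were named after their values were seen. Alternatives were a pseudocount of 0.1 or 0.5 TPM, no filter or at least 1 TPM in every sample, a common median, quantile normalization, no trend, sample weights, the replicate block, an adjusted p under 0.05, a 2-fold minimum, only the 2 clones compared, and each sample left out. The further lists were recomputed without Rop7-II replicate 1 alone. Gene positions are GENCODE's on GRCm38 and promoters RefSeq's on GRCm38.p6, both of the mm10 build. Motifs were searched in Python 3.11.15, and matplotlib 3.10.9 drew the figures.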

Additional observations from a re-analysis of the deposited data

How the results depend on the processing

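The TPM of a sample hides its depth, and 3 samples per clone set the precision. With all 9 samples and any fold, 20 differences of 13 members were called over the 3 pairs. No called difference changed sign under any of the 21 alternatives. Of the 20, 7 were lost only under the 2-fold minimum, namely Gbp2 and Slfn5 in 2 pairs each, Irf1 and Bst2 between Rop7-III and Rop7-I and Ifit2 between Rop7-I and Rop7-II, and the remaining 13 were lost under 4 or more alternatives. Of the 97 differences not called, 32 were called under some alternative. The count of 0 members higher in Rop7-III T cells than in Rop7-I, and of 0 lower in Rop7-I T cells than in Rop7-II, was 0 under every alternative. The causes of the changes below were not tested.

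Members lower in Rop7-III T cells than in Rop7-I, 9 by the reported settings, numbered 3 with no filter on low values, 5 with a common median, 5 with no trend of the spread, 19 with sample weights, 19 at an adjusted p under 0.05, 0 at 2-fold, 22 with only these 2 clones fitted, and 3 to 20 with each sample left out. Members lower in Rop7-III T cells than in Rop7-II, 4 as reported, numbered 1 with no filter, 2 with quantile normalization, 2 with no trend, 10 at an adjusted p under 0.05, 1 at 2-fold, 1 with only these 2 clones fitted, and 1 to 7 with each sample left out. The 1 member higher in this pair became 2 at an adjusted p under 0.05 and 0 at 2-fold, and 1 to 2 with each sample left out. Members higher in Rop7-I T cells than in Rop7-II, 6 as reported, numbered 13 at an adjusted p under 0.05, 0 at 2-fold, 2 with only these 2 clones fitted, and 2 to 9 with each sample left out. The F test, 12 as reported, called 6 with no filter, 19 with sample weights, 25 at an adjusted p under 0.05, 0 at 2-fold, and 5 to 20 with each sample left out. Counts over all genes moved under these alternatives too, as given below for the pairs, so a moved count is by itself no result about the members. For the F test, the share of all genes is given only with all 9 samples and without Rop7-II replicate 1.

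With the replicate number as a block, 3 members were lower in Rop7-III T cells than in Rop7-I, 2 were lower in Rop7-III T cells than in Rop7-II and 6 passed the F test. The block ended 10 of the 20 calls and added none. No label says whether the numbers pair the samples, so whether the block belongs in the fit is not known. These 10 calls depend on leaving it out.

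Over all tested genes, 588 were called between Rop7-III and Rop7-I. This count moved to 442 with no filter, 552 with a common median, 407 with no trend and 1062 with sample weights. It was 373 with the replicate block, 926 with only these 2 clones fitted, and 258 to 830 with each sample left out. Between Rop7-III and Rop7-II 1488 were called, with 1282 with no filter, 1446 with quantile normalization, 1175 with no trend and 1105 with the replicate block. The count was 939 when only these 2 clones were fitted and 834 to 1315 with each sample left out. Between Rop7-I and Rop7-II 912 were called, with 600 with no trend, 433 when only these 2 clones were fitted and 416 to 875 with each sample left out. At an adjusted p under 0.05 these counts were 1586, 3041 and 2163, and at 2-fold 128, 206 and 115, in the same order of pairs.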
